A study of Metroxylon sagu with 6 samples.

Results

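Boron transporter Unigenes of sago palm (*Metroxylon sagu*) leaf were compared between non-trunking and trunking palms. Unigenes are transcript contigs put together from the reads with no genome at hand. The members are the 7 Unigenes, of 99933 listed in the 6 libraries, whose SwissProt match contains the words boron transporter. Of these, CL5711.Contig2_All and CL5711.Contig3_All were first picked on their small p in the same comparison of non-trunking with trunking palms. Their values, and those of their cluster CL5711, are therefore given as a description with no test. The other members entered by their annotation, in a family that was chosen with earlier results of these data known.

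The non-trunking group holds the leaves of palms SN7, SN8 and SN9, which had not formed a trunk, and the trunking group those of palms ST1, ST4 and ST5, which had. The groups follow the sample labels and the list of palms with their positions, since a list of data links in the paper calls all libraries trunking, also those it codes NT. The palms grew in the same plantation on peat soil, and each gave 1 library. The age, genotype and leaf position of the palms were not stated in the labels or methods. By the positions that the study recorded, the palms of each phenotype stood together at a place of their own, so phenotype and place cannot be told apart.

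Boron is taken up as boric acid and is needed by plants in the cell wall, where borate links chains of the pectin rhamnogalacturonan II. Boron transporters (BOR proteins) are membrane proteins related to bicarbonate exchangers that carry borate out of cells. In *Arabidopsis thaliana*, BOR1 loads boron into the xylem when boron is scarce, BOR2 is its close relative, and BOR4 exports boron and gives tolerance of an excess. Boric acid enters cells through channels of the NIP aquaporin family, of which NIP5-1 acts in the root and NIP6-1 in the shoot, towards growing leaves. The boron content of leaf and soil was not analysed here.

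The libraries held between 17973801 and 18323939 expected counts in non-trunking palms and between 17927176 and 18492907 in trunking palms. An expected count is the number of fragments that RSEM, the authors' counting tool, assigned to a Unigene. The TMM scaling factors, which correct for differences in library composition, ran from 0.824 in SN7 to 1.13 in SN9 and from 0.970 in ST1 to 1.11 in ST4. The level of each Unigene is given in FPKM, which is set per length and per library total and so allows different genes to be compared. The 40 Unigenes matched to the Rubisco small subunit or to chlorophyll a-b binding proteins, which mark green leaf, summed to between 15870 and 29880 FPKM in non-trunking palms and between 12200 and 25190 FPKM in trunking palms, and none of them was at 0 in all palms. No Unigene was matched to a Casparian strip membrane protein, which marks the root endodermis. Markers of secondary walls had 1 match, with at most 0.61 FPKM in non-trunking and 2.42 FPKM in trunking palms. The 11 Unigenes matched to phloem lectins summed to 205 to 261 FPKM in non-trunking and 107 to 269 FPKM in trunking palms, so these sums overlapped between the groups. The log2 fold change, non-trunking minus trunking, was positive in 32 of the 38 green leaf markers tested and in 10 of the 11 phloem markers. The median over all Unigenes tested was 0.02. The edgeR test called 0 of these markers, but it called 0% of all Unigenes, so this does not show that the markers were unchanged. The part of these markers in the results on boron transporters was not tested. A lower share of a cell type in the leaf and less RNA per cell cannot be told apart in such libraries.

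The 7 members fall into 2 clusters of contigs and 1 lone Unigene. A cluster joins contigs that overlap in sequence, which may be isoforms, alleles or near-identical genes. Cluster CL5711 held 3 members of 2989, 3003 and 3040 nt, all matched to probable boron transporter 2 (BOR2) of *A. thaliana*. The best Nr match of its Contig1 and Contig2 was 1 oil palm protein, and that of Contig3 was another oil palm protein named probable boron transporter 2. All 3 had the same best nucleotide match in date palm, and all 3 carried the gene ontology term of inorganic anion exchange. A short contig of this cluster, CL5711.Contig4_All (271 nt), had the same nucleotide match but no SwissProt entry. It is not a member, and it was counted in the cluster sum. Cluster CL3775 held 3 members of 3340, 3862 and 3257 nt, all matched to boron transporter 4 (BOR4) of *A. thaliana* and, in Nr, to 1 date palm protein named boron transporter 4-like. No other Unigene carried the KOG or PANTHER class of these transporters or a boron transporter name in any of the 7 databases.

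The lone member, Unigene35380_All, was 200 nt long and had 1 expected count, in ST5. Its match to probable boron transporter 3 was weak (E-value 3.3e-06), and its best Nr match was a bicarbonate transporter of the alga *Emiliania huxleyi*. In the non-trunking palms and in ST1 and ST4 it had 0 counts, which allows up to 3 counts, or between 0.148 and 0.200 CPM (counts scaled to a fixed library total with the TMM factors). It did not pass the filter on low counts, which the 6 members of the clusters passed.

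The BOR2-matched cluster CL5711 stood at a 9.98-fold higher mean level in non-trunking than in trunking leaves. Its contigs summed to 27.3, 52.5 and 37.9 FPKM in SN7, SN8 and SN9, against 4.04, 5.34 and 2.42 FPKM in ST1, ST4 and ST5. The means were 39.3 ± 12.7 FPKM in non-trunking and 3.93 ± 1.46 FPKM in trunking palms (SD, n = 3 each). SN8 had the highest and SN7 the lowest sum of the non-trunking palms, and the lowest of these was still 5.11 times the highest trunking value, in ST4. On TMM-scaled counts the log2 fold change of the sum, non-trunking minus trunking, was 3.44, and 0.265% of the 25629 clusters and lone Unigenes tested had one at least as high. This rank describes a cluster chosen for its difference and is no test of it.

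Each contig of CL5711 showed the separation. CL5711.Contig2_All was at 9.25, 29.7 and 21.8 FPKM in SN7, SN8 and SN9, and at 2.20, 1.81 and 0.94 FPKM in ST1, ST4 and ST5. CL5711.Contig3_All was at 10.5, 20.2 and 12.0 FPKM in the same non-trunking palms and at 1.16, 1.60 and 0.81 FPKM in the trunking palms. In both contigs SN8 was the highest palm and ST5 the lowest. The less abundant CL5711.Contig1_All had another order, with 6.23, 2.63 and 3.88 FPKM in SN7, SN8 and SN9, against 0.68, 1.41 and 0.41 FPKM in ST1, ST4 and ST5. Here SN8 was the lowest of the non-trunking palms, and it stayed above ST4, the highest of the trunking ones. The log2 fold changes of Contig1, Contig2 and Contig3 were 2.50, 3.63 and 3.64. The short CL5711.Contig4_All stayed at or below 1.31 FPKM in non-trunking and 0.52 FPKM in trunking palms.

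The BOR4-matched cluster CL3775, which entered by its annotation, also stood higher in every non-trunking palm. Its contigs summed to 38.6, 47.1 and 19.2 FPKM in SN7, SN8 and SN9, against 4.99, 8.66 and 11.2 FPKM in ST1, ST4 and ST5. The means were 35.0 ± 14.3 FPKM in non-trunking and 8.28 ± 3.12 FPKM in trunking palms (SD, n = 3 each). The groups did not overlap, but SN9 came within 1.72 times of ST5. The log2 fold change of the cluster was 2.18 (standard error 0.48), and all 3 non-trunking palms lay above all 3 trunking palms. The quasi-likelihood test of edgeR gave an adjusted p of 0.195, so the difference did not pass the threshold of 0.05.

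**Figure D1:**
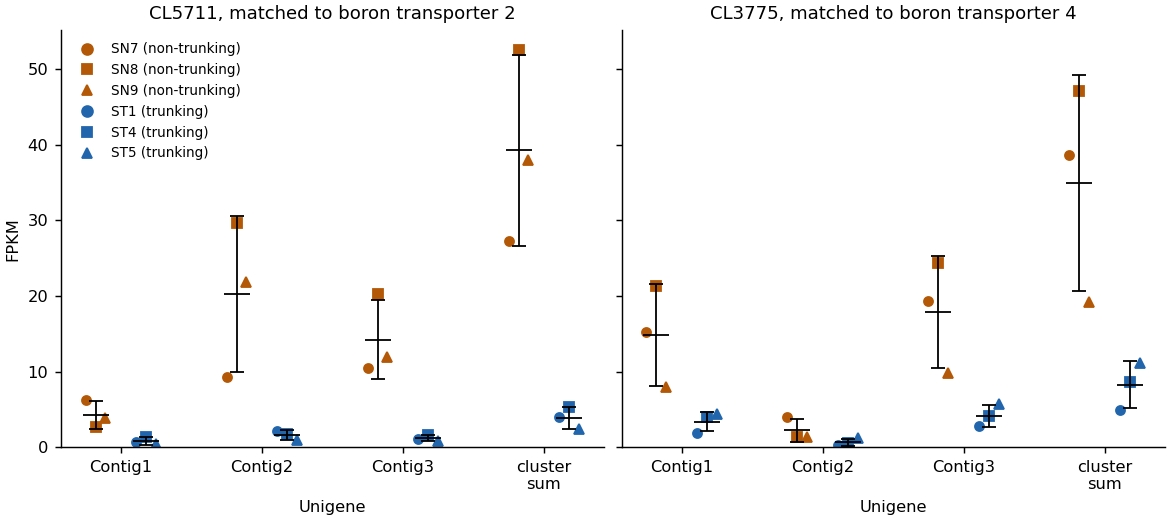
FPKM (vertical axis, linear) of the 3 member contigs and of the cluster sum in CL5711 (left) and CL3775 (right). Each point is 1 palm, non-trunking left of trunking, with the mean and SD (n = 3) as black bars. The cluster sums of non-trunking palms lay between 27.3 and 52.5 FPKM in CL5711 and between 19.2 and 47.1 FPKM in CL3775, above all trunking palms.

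The contigs of CL3775 followed their sum. CL3775.Contig3_All, the most abundant, was at 19.4, 24.4 and 9.87 FPKM in SN7, SN8 and SN9, against 2.79, 4.12 and 5.68 FPKM in ST1, ST4 and ST5. Its log2 fold change was 2.19 (standard error 0.46), and edgeR gave an adjusted p of 0.237. CL3775.Contig1_All was at 15.3, 21.4 and 7.96 FPKM in SN7, SN8 and SN9, and at 1.91, 3.96 and 4.34 FPKM in ST1, ST4 and ST5 (log2 fold change 2.23, standard error 0.49, edgeR adjusted p = 0.249). In both of these contigs SN8 was the highest and ST1 the lowest palm. CL3775.Contig2_All was the least abundant, at 3.96, 1.32 and 1.41 FPKM in SN7, SN8 and SN9, against 0.29, 0.58 and 1.18 FPKM in ST1, ST4 and ST5. Its log2 fold change was 1.87 (standard error 0.73), at an edgeR adjusted p of 0.473. Without SN7, its highest palm, the log2 fold change of this contig was 0.94.

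Among all 45928 Unigenes tested, 0% passed an adjusted p of 0.05 in the quasi-likelihood test of edgeR, and 9.85% had an unadjusted p under 0.05. The 3 contigs of CL3775 all had an unadjusted p under 0.05, of 0.00288 (Contig1), 0.0385 (Contig2) and 0.00233 (Contig3), which edgeR gave before adjustment. In 8.71% of the tested Unigenes all non-trunking palms lay above all trunking palms, and all 6 tested boron transporter members did, 3 of them in the chosen cluster. Contigs of a cluster share sequence and reads, so these 6 stand for 2 clusters. DESeq2's Wald test called 2.22% of the Unigenes to which it gave an adjusted p. It called CL3775.Contig1_All (adjusted p = 0.00248) and CL3775.Contig3_All (adjusted p = 0.00175), and it did not call CL3775.Contig2_All (adjusted p = 0.207). When counts were summed per cluster, edgeR again called 0% of 25629 units, and 11.0% had an unadjusted p under 0.05. In 8.91% of these units all non-trunking palms lay above all trunking palms. DESeq2 called 2.57% of the units with an adjusted p, CL3775 among them (adjusted p = 0.00153). The call of CL3775 thus depended on the test, and the cause of this was not tested.

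The 2 clusters did not rank the palms alike. SN9 was the lowest non-trunking palm in CL3775 but the second highest in CL5711, and ST5 was the highest trunking palm in CL3775 but the lowest in CL5711. The ratio of CL5711 to CL3775 in FPKM was 0.706, 1.11 and 1.97 in SN7, SN8 and SN9, against 0.810, 0.617 and 0.216 in ST1, ST4 and ST5. These ratios overlapped between the groups, since ST1 lay above SN7. Which of the 2 transporter types was the more abundant therefore differed between palms of one phenotype, with BOR4-matched contigs ahead in SN7 and in all trunking palms. Added together, the 7 members reached 64.6, 99.6 and 56.9 FPKM in SN7, SN8 and SN9, and 9.03, 13.5 and 13.8 FPKM in ST1, ST4 and ST5.

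RSEM divides reads between near-identical contigs, so the share of each contig in its cluster was compared across palms. In CL5711, Contig2 held 35.4%, 56.2% and 57.7% of the cluster's expected counts in SN7, SN8 and SN9, against 54.3%, 37.2% and 42.9% in ST1, ST4 and ST5. Contig3 held between 32.1% and 40.6% in non-trunking and between 29.0% and 37.5% in trunking palms. Contig1 held 23.7%, 4.96% and 10.2% in SN7, SN8 and SN9 and 16.8%, 28.8% and 18.7% in ST1, ST4 and ST5. The shares of all these contigs overlapped between the groups. In CL3775, Contig1 held 39.5% to 45.8% in non-trunking and 38.5% to 45.8% in trunking palms. Contig3 held 48.7% to 51.0% in non-trunking and 46.4% to 54.7% in trunking palms, the larger share in every palm. Contig2 of CL3775 held 3.29% to 11.8% in non-trunking and 6.79% to 12.2% in trunking palms.

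**Figure D2:**
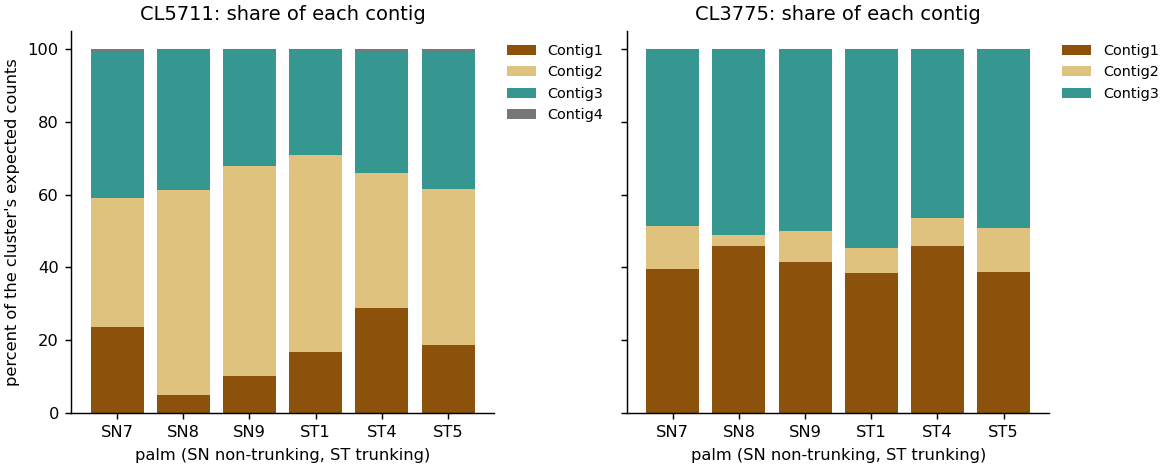
Share of each contig in the expected counts of its cluster (vertical axis, percent) by palm, non-trunking palms (SN) left of trunking palms (ST). In CL5711 the share of Contig1 lay between 4.96% and 23.7% in non-trunking and between 16.8% and 28.8% in trunking palms. The shares overlapped between the groups for each member contig of both clusters.

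Boric acid channels bring boron into cells, where boron transporters carry it out. SwissProt matches to NIP5-1, NIP6-1, NIP7-1 or NIP3-1 were found in 9 Unigenes, 2 matched to NIP5-1 and 7 to NIP6-1 of *A. thaliana*. The 2 types pointed in opposite directions. Of the 8 that passed the filter on low counts, 0 passed an adjusted p of 0.05 in the quasi-likelihood test of edgeR, where 0% of all Unigenes did. An unadjusted p under 0.05 was found for 7, and for 9.85% of all Unigenes. DESeq2 gave 5 of the 9 an adjusted p under 0.05, all of them matched to NIP6-1, and it called 2.22% of all Unigenes. Each of these counts includes CL4818.Contig3_All, CL4818.Contig4_All and Unigene190_All, which passed the filter through the trunking palms alone. Contigs of a cluster also share reads, so the counts are no test of the list.

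The NIP6-1-matched Unigenes were lower in non-trunking leaves. Their summed level was 4.32, 64.9 and 11.9 FPKM in SN7, SN8 and SN9, against 125.3, 295.6 and 372.8 FPKM in ST1, ST4 and ST5. The highest non-trunking palm, SN8, was at 0.518 times the lowest trunking palm, ST1. Of the 6 tested NIP6-1 matches, CL4818.Contig3_All, CL4818.Contig4_All and Unigene190_All reached the filter on low counts through the trunking palms alone, so that their lower values in non-trunking palms are partly set by the filter. The other 3, CL2593.Contig1_All, CL2593.Contig2_All and Unigene189_All, had enough reads in either group. In these 3 every non-trunking palm lay below every trunking palm, which held for 8.55% of all Unigenes tested.

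The most abundant of them, CL2593.Contig1_All, was at 3.21, 51.9 and 7.66 FPKM in SN7, SN8 and SN9, and at 88.4, 155.6 and 246.5 FPKM in ST1, ST4 and ST5. Its log2 fold change was -2.95 (standard error 1.02), at an edgeR adjusted p of 0.433, and DESeq2 gave an adjusted p of 0.0348. SN8 lay far above the other non-trunking palms, and without it the log2 fold change was -4.90. The smallest unadjusted p in this list was that of Unigene189_All, at 0.57, 0.36 and 0.37 FPKM in SN7, SN8 and SN9, against 2.44, 8.22 and 6.19 FPKM in ST1, ST4 and ST5. Its log2 fold change was -3.54 (standard error 0.55), its edgeR adjusted p was 0.185 and its DESeq2 adjusted p was 2.84e-06. Cluster CL4818, named here after its values were seen, summed to 0, 1.31 and 0.46 FPKM in SN7, SN8 and SN9, and to 17.3, 89.2 and 100.2 FPKM in ST1, ST4 and ST5. Its level was near 0 in non-trunking leaves, with a log2 fold change of -6.86. This size rests on few reads in non-trunking palms, and it was -5.20 on log2(FPKM + 1) and -8.33 without SN8. DESeq2 gave CL4818 an adjusted p of 0.00105. Without the filter on low counts, edgeR called 0.257% of the clusters and lone Unigenes, CL4818 among them (adjusted p = 0.00957).

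The NIP5-1-matched Unigenes stood higher in non-trunking leaves. Unigene16138_All was at 10.7, 4.16 and 5.73 FPKM in SN7, SN8 and SN9, against 2.66, 1.75 and 0.59 FPKM in ST1, ST4 and ST5 (log2 fold change 2.16, standard error 0.67, edgeR adjusted p = 0.388). All 3 non-trunking palms lay above the trunking palms, and SN7 was the highest. Without SN7 the log2 fold change was 1.49. Unigene53406_All was at 6.22, 1.70 and 2.48 FPKM in SN7, SN8 and SN9, and at 1.71, 1.01 and 0.25 FPKM in ST1, ST4 and ST5. Its groups overlapped, since SN8 lay just below ST1, and its edgeR adjusted p was 0.521. Unigene53406_All reached the filter on low counts through the non-trunking palms alone, so that its higher values there are partly set by the filter. The ratio of NIP6-1 to NIP5-1 matches in summed FPKM was 0.256, 11.1 and 1.45 in SN7, SN8 and SN9. It was 28.7, 107 and 444 in ST1, ST4 and ST5, and the value of ST5 rests on a NIP5-1 sum of 0.84 FPKM. The groups could not overlap in this ratio, since its parts already set them apart in opposite directions.

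**Figure D3:**
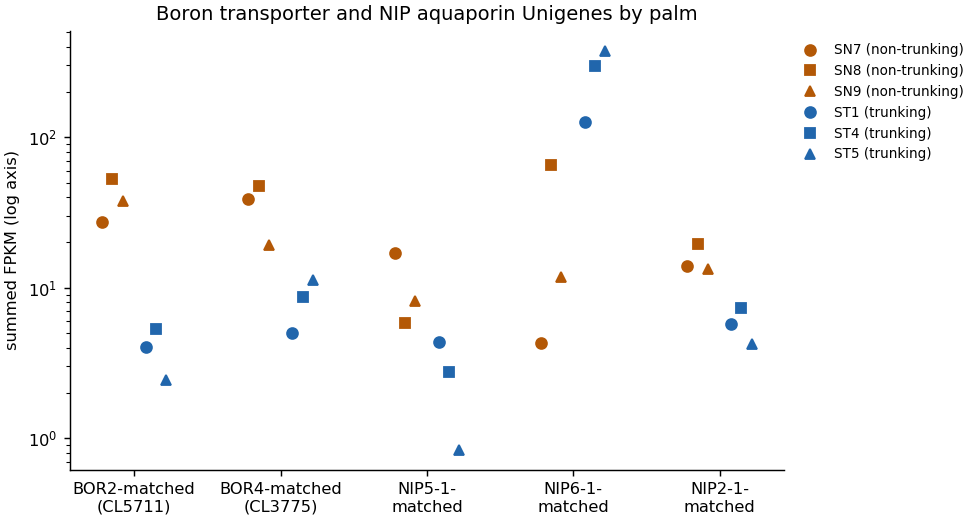
Summed FPKM (vertical axis, logarithmic) of Unigenes matched to boron transporter 2, boron transporter 4 and the aquaporins NIP5-1, NIP6-1 and NIP2-1. Each point is 1 palm, non-trunking left of trunking. Non-trunking palms lay above all trunking palms in each group but NIP6-1, where they lay between 4.32 and 64.9 FPKM, below 125.3 FPKM in ST1. Of all clusters and lone Unigenes tested, 8.91% had all non-trunking palms above all trunking palms. CL5711 was chosen for this difference, and the NIP5-1-matched Unigene53406_All taken alone overlapped between the groups.

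The other NIP aquaporins gave 4 Unigenes, all with a positive log2 fold change and none with an edgeR adjusted p under 0.05 (0 of 4, with 2 at an unadjusted p under 0.05, beside 9.85% of all Unigenes). The most abundant was CL3590.Contig2_All, matched to NIP1-1 of rice, whose log2 fold change was 0.46 (standard error 0.35) and whose groups overlapped. The smallest p was that of CL5995.Contig1_All, matched to rice NIP2-1, a channel that takes up silicic acid. It was at 8.11, 14.6 and 8.75 FPKM in SN7, SN8 and SN9, against 3.71, 5.35 and 3.36 FPKM in ST1, ST4 and ST5 (log2 fold change 1.41, standard error 0.31, edgeR adjusted p = 0.252). The 3 Unigenes matched to NIP2-1 summed to between 13.3 and 19.4 FPKM in non-trunking and between 4.23 and 7.36 FPKM in trunking palms. DESeq2 called CL5995.Contig1_All (adjusted p = 0.0259) and no other Unigene of this list, beside 2.22% of all Unigenes with an adjusted p.

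Rhamnogalacturonan II is the wall polymer that borate links, and its synthesis needs special sugars such as apiose, L-fucose and Kdo. The enzymes taken for this list gave 32 Unigenes, of which 29 were tested. Of these, 17 had a positive and 12 a negative log2 fold change, between -0.92 and 0.93, with a median of 0.16. In the quasi-likelihood test of edgeR 0 had an adjusted p under 0.05 and 0 an unadjusted p under 0.05, beside 0% and 9.85% of all Unigenes tested. DESeq2 called 0, beside 2.22% of all Unigenes with an adjusted p. In 22 of the 29 the groups overlapped, while in 4 the non-trunking palms all lay above and in 3 all below the trunking palms, beside 8.71% and 8.55% of all Unigenes tested. Summed levels were 186 to 218 FPKM in non-trunking and 184.5 to 191 FPKM in trunking palms. The most abundant, Unigene20032_All, matched to the enzyme that activates Kdo, was at 29.5, 23.6 and 32.2 FPKM in SN7, SN8 and SN9 and at 30.8, 31.2 and 28.7 FPKM in ST1, ST4 and ST5. The smallest p was that of Unigene16806_All, matched to a GDP-L-fucose synthase, with a log2 fold change of 0.63, a standard error of 0.29 and an edgeR adjusted p of 0.537.

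**Figure D4:**
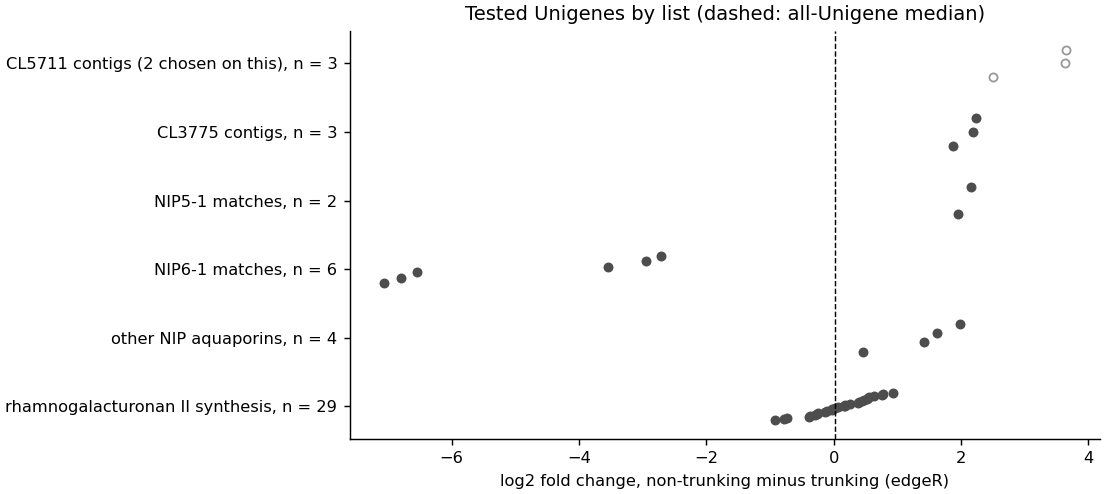
Log2 fold change of non-trunking minus trunking palms (horizontal axis, edgeR on TMM-scaled counts) for each tested Unigene of the boron transporter clusters and of the lists beside them. Each point is 1 Unigene, open points belong to CL5711, and the dashed line is the median of all Unigenes tested, 0.02. Points of NIP6-1 matches lie at or below -2.71, where 3 of them passed the filter through trunking palms alone, and those of rhamnogalacturonan II synthesis between -0.92 and 0.93.

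The units whose pattern was most like the CL5711 sum were found by Pearson's r over the 6 libraries on log2(CPM + 1), among 14657 clusters and lone Unigenes with a SwissProt match and a mean of at least 1 CPM. With 6 points in 2 groups, any unit that sets the groups apart has a high r, and no p is given. The highest values were 0.9985 for cluster CL8093 and 0.9985 for Unigene29636_All, both matched to cinnamoyl-CoA reductase 1, an enzyme of lignin synthesis. CL8093 was at 21.4, 30.7 and 23.9 CPM in SN7, SN8 and SN9 and at 2.57, 2.31 and 0.994 CPM in ST1, ST4 and ST5. Its order of non-trunking palms, with SN8 highest and SN7 lowest, was that of CL5711. The order of trunking palms differed, since ST1 lay above ST4 in CL8093, while CL5711 was at 12.5 CPM in ST1 and 13.0 CPM in ST4. The next were Unigene22174_All, matched to an uncharacterized protein (r = 0.9967), CL2403, matched to adenosine kinase 2 (r = 0.9938), and CL7061, matched to a ubiquitin carboxyl-terminal hydrolase (r = 0.9918). Their sizes differed widely, with a log2 fold change of 1.34 for CL2403 but 0.55 for Unigene22174_All and 0.21 for CL7061. On log2(FPKM + 1), the r of Unigene22174_All was 0.886 (rank 416) and that of CL7061 was 0.547 (rank 2794), while CL8093, Unigene29636_All and CL2403 had 0.9973, 0.9936 and 0.9889. The BOR4-matched cluster CL3775 came in at rank 652, with an r of 0.838.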

How the data were processed

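Leaf RNA of 3 non-trunking and 3 trunking palms was sequenced on the BGISEQ-500 platform. The authors assembled the clean reads with Trinity, clustered contigs with TGICL, mapped reads with Bowtie2 and counted with RSEM, with versions not given in the sources used here. They deposited, per library and Unigene, an expected count (estimated, not normalized) and an FPKM value, and the authors listed no FPKM under 0.01. An unlisted Unigene was set to 0.

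Files were joined in Python 3.11.15 (NumPy 2.4.6, pandas 2.3.3, figures in Matplotlib 3.10.9). Rounded expected counts of all Unigenes, and sums per cluster, were fitted by edgeR 4.0.16 under R 4.3.3 (low counts removed by filterByExpr, TMM scaling, two-sided quasi-likelihood test, Benjamini-Hochberg adjustment over all tested, threshold 0.05). The standard error is the log2 fold change over the square root of F. DESeq2 1.42.0 (all Unigenes, its own filter) and limma 3.58.1 on log2(FPKM + 1), for FPKM of at least 1 in 3 libraries, were alternatives, as were the scaling, the filter, a pseudocount of 0.1 and leaving out each palm. The code was tested on simulated data. Each library is 1 palm, so the tests set the group difference against the spread between palms within a group. The palms of each group stood together at a place of their own.

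Members and lists were chosen with earlier results of these data known. Named Unigenes were all members, the most abundant and the smallest p of each list, and the 5 units most like CL5711. The lists took SwissProt names: NIP5-1, NIP6-1, NIP7-1 and NIP3-1, other NIP aquaporins, enzymes of rhamnogalacturonan II, and markers of leaf, secondary wall, phloem and root endodermis.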

Additional observations from a re-analysis of the deposited data

How the results depend on the processing

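Under edgeR with RLE factors, library size alone or no filter, under limma with either pseudocount, and without each palm, 0 members outside CL5711 and 0 Unigenes of the 3 lists had an adjusted p under 0.05. DESeq2 called 2 contigs of CL3775 where edgeR called 0, the summed cluster CL3775 (1 against 0), 5 boric acid channels against 0 and 1 other NIP aquaporin against 0. Among all features with an adjusted p, DESeq2 called 2.22% of Unigenes and 2.57% of clusters and lone Unigenes, where edgeR called 0%. The 5 channels include CL4818.Contig3_All, CL4818.Contig4_All and Unigene190_All, which passed the filter of edgeR through the trunking palms alone. The cause of the difference between the tests was not tested. Without the filter, edgeR called 187 of 72881 clusters and lone Unigenes (0 of 25629 with it). The adjusted p of the CL3775 sum was 0.0535 in edgeR without the filter and between 0.207 and 0.451 without each palm. The log2 fold change of the CL5711 sum stayed between 3.18 and 3.61 without each palm and between 3.03 and 3.45 under the other settings, and all 6 tested members kept their groups apart in each scaling and in FPKM. For CL3775 the log2 fold change lay between 1.93 and 2.54 without each palm. The near-zero change of Unigene20032_All lay between -0.19 and 0.12 without each palm, and above 0 without SN8 (0.12) and without ST1 (0.03). Of the 5 units most like CL5711, 2 stayed among the first 5 on log2(FPKM + 1), and 2 were among the 21 units tied at a Spearman's rho of 1. Few reads limit Unigene35380_All and CL4818 in non-trunking palms. No paired analysis was possible because the groups share no replicate numbers.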

Other observations

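Silicon efflux transporters were chosen after their values were seen, because in rice they work with NIP2-1 as boron transporters do with NIP5-1 in *A. thaliana*. SwissProt matches to them were found in 15 Unigenes, of which 12 passed the filter on low counts. Because of this choice, they are given as a description with no test. Cluster CL2485 held 8 of the 12, and its contigs share sequence and reads. These 8 did not share a direction. In 6 of them the log2 fold change was negative and every non-trunking palm lay below every trunking palm, as in 8.55% of all Unigenes tested, while the 2 others had a positive value and overlapping groups. CL2485.Contig4_All was at 17.5, 39.6 and 30.9 FPKM in SN7, SN8 and SN9, against 69.1, 60.1 and 75.0 FPKM in ST1, ST4 and ST5. CL2485.Contig6_All was at 21.8, 157.1 and 58.9 FPKM in SN7, SN8 and SN9, against 30.2, 28.0 and 45.4 FPKM in ST1, ST4 and ST5. Summed over the cluster, the groups overlapped, with 83.2, 402.8 and 182.9 FPKM in SN7, SN8 and SN9 and 219, 187 and 255 FPKM in ST1, ST4 and ST5. The contigs of CL2485 thus differed in direction.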
